A study of Mus musculus with 12 samples.

Results

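Cytosolic ribosomal protein genes encode the proteins that, with ribosomal RNA, build the ribosome of the cytoplasm. Members were taken by name from the table of 11786 genes: protein-coding mouse genes called Rpl or Rps followed by a digit, and Rpsa, without the ribosomal protein kinases, like-genes, pseudogenes and predicted genes. The rule gave 75 annotated genes, of which 73 had a value, 32 of the small subunit (Rps and Rpsa) and 41 of the large subunit (Rpl). Rpl26 and Rpl34 were not analysed here. Rps23rg1, a retrogene named after Rps23, was kept because its name meets the rule, and it was counted by name among the 32. Whether it encodes a ribosomal protein was not examined here.

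RNA was sequenced from dendritic cells grown from mouse bone marrow with GM-CSF, in 4 groups of 2 libraries. The groups were wild-type cells alone, wild-type cells kept overnight with killed B16-OVA cells (a mouse melanoma line carrying ovalbumin, called lysate in the labels), cells labelled Ythdf1-/- alone, and cells labelled Ythdf1-/- with the same lysate. Ythdf1 is a cytoplasmic reader of the m6A mark on RNA. The cells were purified after culture and libraries were made from total RNA with a stranded poly(A) kit, per the labels. Whether the 2 libraries of each group stem from different mice or cultures is not stated, and the p-values therefore reflect spread among these samples alone, possibly technical. The series has 12 samples, and its 4 immunoprecipitation samples were not analysed here.

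A ribosome holds a small subunit, which reads the messenger RNA, and a large subunit, which joins amino acids. The protein components are made in near-equal amounts, and their genes are among the most abundant transcripts of growing cells. Most ribosomal protein messages start with a C followed by a run of pyrimidines, the TOP element, through which mTOR and the RNA-binding protein Larp1 control their translation and stability.

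Promoter windows are shown for 8 of the members that fell with lysate in KO-labelled cells, because the TOP element lies at the transcription start. They are examples with and without marked letters in the bases printed, which are fewer than those searched below. Each runs from 35 bases before to 15 bases after the start, 5′ to 3′ on the gene's strand, from RefSeq on GRCm38.p6, and capitals mark CTTTC or the ETS-type motif CCGGAAG. The marked letters were not required to lie at the start itself, so they are not called TOP elements. The authors' values were made on mm9, so the coordinates serve only to place these windows.
Rps10, chr17:27635230-27635279, minus strand: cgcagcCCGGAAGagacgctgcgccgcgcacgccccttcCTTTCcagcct
Rpl35, chr2:39005117-39005166, minus strand: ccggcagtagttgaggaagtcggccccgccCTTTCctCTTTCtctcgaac
Rpl5, chr5:107900493-107900542, plus strand: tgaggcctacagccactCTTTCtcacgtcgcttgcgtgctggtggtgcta
Rpl28, chr7:4792930-4792979, plus strand: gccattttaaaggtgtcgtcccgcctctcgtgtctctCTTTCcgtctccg
Rpl13a, chr7:45128731-45128780, minus strand: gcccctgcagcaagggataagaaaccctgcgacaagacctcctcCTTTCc
Rps3a1, chr3:86142654-86142703, minus strand: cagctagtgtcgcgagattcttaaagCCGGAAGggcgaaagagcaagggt
Rpsa, chr9:120127731-120127780, plus strand: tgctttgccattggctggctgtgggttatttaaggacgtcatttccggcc
Rps24, chr14:24490643-24490692, plus strand, the first listed of its starts: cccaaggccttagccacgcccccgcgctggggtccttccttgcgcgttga

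The RefSeq promoter table held 54 of the 73 members. On the gene's own strand, CTTTC lay within 50 bases of the start in 30 of the 54 (55.6%), against 14.6% of 27025 genes. On the opposite strand the same letters were in 6 members (11.1%) and in 13.8% of all genes. The longer CTCTTTC, which contains CTTTC, was on the gene's strand in 11 members (20.4%) and 1.62% of all genes. CCGGAAG on either strand of the 300-base promoter was in 21 members (38.9%) and 9.93% of all genes. GCCATCTT was in 5 members (9.26%) against 3.19%, and TATAAA in 5 (9.26%) against 15.7%, both counted on either strand of 300 bases. A match describes the letters in the window and not a bound site.

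Levels were the deposited log2 values, which are scaled between libraries, so a change is relative to the other genes of a library. Over the 8 libraries the members' mean levels ran from 9.01 (Rps2) to 14.15 (Rpsa), with a median of 12.12, and 65 of the 73 lay in the highest decile of all genes. Their transcripts were short, with a median of 799 bases against 2862 over all genes, and a GC content of 50.9% at the median against 50.4%. Divided by transcript length in kilobases, the log2 level was highest for Rpl41 (14.54), Rps29 (14.26) and Rps24 (14.18). It was lowest for Rps15a (8.93), Rps2 (9.01) and Rps20 (10.09). The median transcript models of Rps15a and Rps20 were 5179 and 3706 bases, far above the other members, and a shorter expressed form would raise their values per kilobase. Of the 73 members, 57 had at least 1 annotated pseudogene named after them, up to 23 for Rpl31 and for Rps12, so reads shared with such copies make single values uncertain.

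Across the whole table the library medians lay between 8.53 and 8.55. Ythdf1 itself stood at 9.58 and 9.43 in wild-type cells alone, 9.72 and 9.58 with lysate, 9.53 and 9.43 in the cells labelled Ythdf1-/- alone, and 9.51 and 9.46 with lysate. Its transcript was therefore not lower by the test under the knockout label (adjusted p = 0.85 alone and 0.202 with lysate), and these cells are called KO-labelled below. All 11 dendritic cell markers listed were in the table. Of 11 melanocyte genes 6 were in the table, and all 6 rose with lysate in both genotypes, although Gpnmb and Mitf were already well expressed without it (16.13 and 16.17, and 9.97 and 9.84, in wild type alone). No B cell, T and NK cell or erythroid marker of the lists was in the table.

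The members moved together from library to library. In wild-type cells alone the median member stood 0.078 and 0.14 above its own mean over the 8 libraries (log2). With lysate the wild-type replicates split, at -0.16 and 0.056. KO-labelled cells alone were at 0.14 and 0.059, and with lysate at -0.21 and -0.10. All 73 members were below their own mean in KO-labelled lysate replicate 1, 70 in KO-labelled lysate replicate 2 and 63 in wild-type lysate replicate 1, against 21 in wild-type lysate replicate 2. In the 4 libraries without lysate the number was between 3 and 23.

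**Figure D1:**
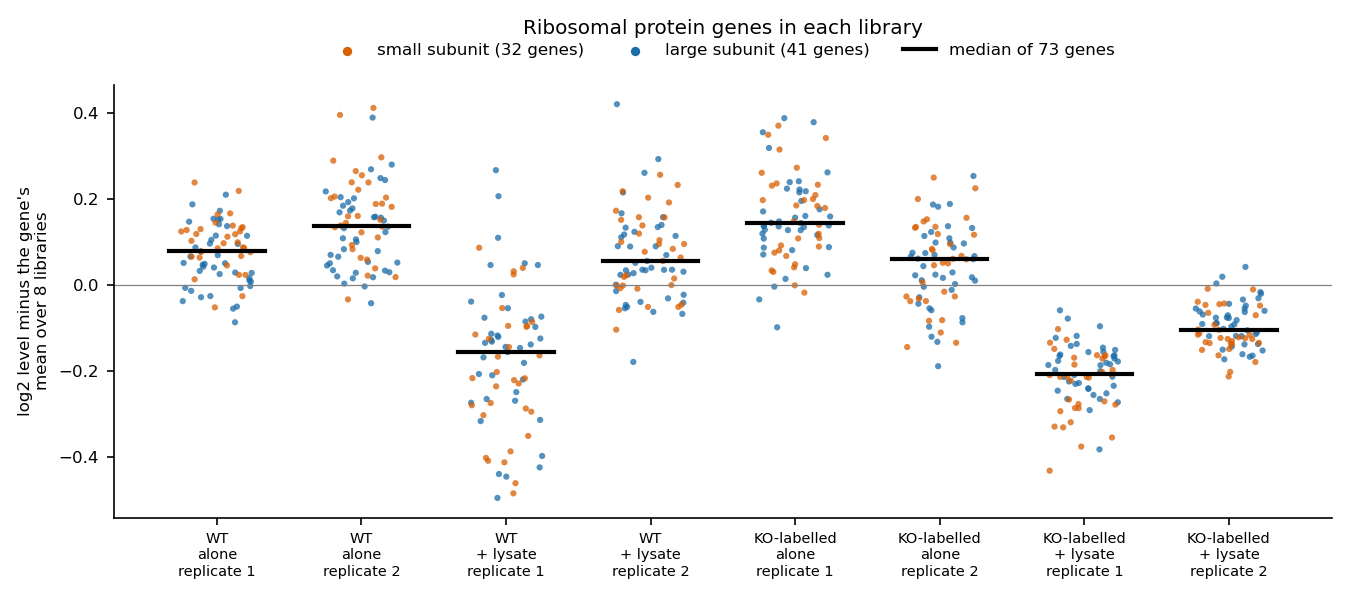
Log2 level of each of the 73 ribosomal protein genes minus that gene's mean over 8 libraries, by library; points are genes, coloured by subunit, and bars are medians. Both KO-labelled lysate libraries and wild-type lysate replicate 1 lie below 0 at the median, and wild-type lysate replicate 2 lies at 0.056.

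The correlation (Pearson's r over the 8 libraries) of a member's profile with the median of the other members was 0.89 at the median, over 0.9 for 30 members and under 0.5 for 7. The points share libraries and scaling, and this is a description. The members with the lowest values were Rpl3 (-0.11), Rpl29 (0.28), Rpl35 (0.29), Rps2 (0.36), Rpl4 (0.46) and Rpl32 (0.49). Rps9 was highest, at 0.98.

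In KO-labelled cells, 34 of the 73 members fell with lysate and none rose, by limma with Benjamini-Hochberg adjustment over 11785 genes at a threshold of 0.05. That is 46.6% of the members against 6.92% of all genes called lower, while 8.28% of all genes were called higher. None was higher at an unadjusted p under 0.05 either (against 15.0% of all genes), where 46 were lower (against 15.0% of all genes). The median change was -0.26 on the log2 scale (range -0.53 to 0.10) against -0.0013 over all genes tested, and 72 of 73 changes were negative. The 34 were 17 small-subunit genes, Rps23rg1 counted by name among them, and 17 large-subunit genes, with subunit medians of -0.27 and -0.24. In 63 members both lysate libraries lay below both libraries without lysate, against 30.2% of all genes, and in 1 (Rpl3) both lay above, against 28.9%. Rps23rg1 aside, 33 of 72 members fell. Dropping KO-labelled lysate replicate 1 left a single call, Rps24. Dropping KO-labelled lysate replicate 2 left 9, and dropping KO-labelled replicate 1 alone left 15.

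Among small-subunit genes, Rps24 had the smallest p. It encodes a protein needed to process the small subunit's RNA and is mutated in some families with Diamond-Blackfan anaemia, an inherited failure of red cell production. Its level was 13.46 and 13.50 in KO-labelled cells alone and 12.97 and 13.04 with lysate, against 13.34 and 13.22 and then 13.27 and 13.20 in wild type. The KO-labelled lysate libraries were the lowest of the 8 and the KO-labelled libraries alone the highest. The change was -0.47 ± 0.067 (SE, n = 2 against 2, adjusted p = 0.000528), and the linear level fell by 28.0%. It passed in all 17 alternative analyses, the loss of any library included, with adjusted p from 2.72e-05 to 0.02. In wild type the change was -0.04 (adjusted p = 0.732).

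Rpsa, the most abundant member by mean level, encodes a small-subunit protein that is also known as the laminin receptor precursor. It read 14.49 and 14.35 in KO-labelled cells alone and 13.87 and 14.02 with lysate, a change of -0.48 ± 0.083 (adjusted p = 0.00198). In wild type it read 14.18 and 14.34 alone and 13.92 and 14.05 with lysate, a change of -0.27 (adjusted p = 0.0331). The groups did not overlap in either genotype. Rps10, also a Diamond-Blackfan anaemia gene, read 12.21 and 11.99, then 11.46 and 11.70 with lysate, in KO-labelled cells (-0.52 ± 0.098, adjusted p = 0.00345). Its wild-type values were 11.81 and 12.03 alone and 11.71 and 11.79 with lysate (-0.17, adjusted p = 0.235). Both calls in KO-labelled cells were lost without KO-labelled lysate replicate 1, with adjusted p of 0.053 for Rpsa and 0.0867 for Rps10.

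Rps9, a small-subunit protein near the entry of the messenger RNA, fell in both genotypes. Levels were 13.47 and 13.58 against 13.02 and 13.35 in wild type, and 13.56 and 13.48 against 13.00 and 13.15 in KO-labelled cells. The changes were -0.34 (adjusted p = 0.0227) and -0.45 ± 0.095 (adjusted p = 0.00698). Rps14, whose loss underlies the anaemia of a myelodysplastic syndrome with a chromosome deletion, had the largest change of any member in each genotype. Its wild-type levels were 12.56 and 12.81 alone and 11.93 and 12.41 with lysate (-0.51 ± 0.14, adjusted p = 0.0191). In KO-labelled cells they were 12.74 and 12.51, then 11.96 and 12.23 (-0.53, adjusted p = 0.0206). The 2 wild-type lysate libraries differed from each other by nearly as much as the change.

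Rps3a1 read 13.12 and 13.07 in KO-labelled cells alone and 12.75 and 12.80 with lysate (-0.32, adjusted p = 0.00793), against 13.00 and 12.96 and then 12.76 and 12.92 in wild type. Rps3, which lines the channel where messenger RNA enters, read 12.62 and 12.69, then 12.26 and 12.42, in KO-labelled cells (-0.31, adjusted p = 0.0217). Its wild-type libraries, 12.62 and 12.74 alone and 12.44 and 12.65 with lysate, overlapped. Rps23, a protein of the decoding centre, read 13.06 and 13.01 and then 12.73 and 12.81 in KO-labelled cells (-0.26, adjusted p = 0.0401). The retrogene Rps23rg1 read 12.87 and 12.93 and then 12.52 and 12.66 (-0.31, adjusted p = 0.0101). In wild type Rps23rg1 read 12.93 and 12.95 alone and 12.70 and 12.79 with lysate. The profiles of Rps23rg1 and Rps23 had r = 0.93 over 8 libraries, with Rps23 higher by 0.16 in mean level, and the counting of near-identical reads could tie them. Rps12 read 11.11 and 11.08, then 10.72 and 10.90, in KO-labelled cells (-0.28, adjusted p = 0.0187), against 11.06 and 11.08, then 11.03 and 10.99, in wild type. Rps6, the member that S6 kinase phosphorylates, did not pass in either genotype, with changes of -0.20 in KO-labelled cells and -0.06 in wild type.

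Among large-subunit genes called in KO-labelled cells, Rpl21, also a gene with many pseudogenes, had the smallest p. It read 11.47 and 11.49 alone and 11.07 and 11.13 with lysate (-0.38 ± 0.074, adjusted p = 0.00425), against 11.28 and 11.28, then 10.97 and 11.17, in wild type. The groups did not overlap in either genotype. Rpl5 and Rpl11 bind the smallest ribosomal RNA of the large subunit and, when free of the ribosome, the p53 regulator Mdm2. Rpl5 read 12.53 and 12.54 in KO-labelled cells alone and 12.23 and 12.24 with lysate (-0.30 ± 0.062, adjusted p = 0.00574). Its wild-type values were 12.52 and 12.46, then 12.38 and 12.36 with lysate, which also did not overlap (-0.12, adjusted p = 0.189). Rpl11 read 12.01 and 11.89, then 11.61 and 11.71, in KO-labelled cells (-0.28, adjusted p = 0.0144) and 11.77 and 11.83, then 11.73 and 11.75, in wild type. Rpl41, the smallest ribosomal protein, read 13.51 and 13.46, then 13.09 and 13.26, in KO-labelled cells (-0.31, adjusted p = 0.0235) and 13.40 and 13.52, then 13.17 and 13.38, in wild type.

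The other large-subunit genes called in KO-labelled cells included Rpl7, Rpl13, Rpl13a, Rpl19, Rpl22, Rpl23, Rpl27a, Rpl28, Rpl30, Rpl35, Rpl35a and Rpl37a, with changes between -0.46 (Rpl13) and -0.24 (Rpl22). Rpl3, a core protein near the site of peptide bond formation, was the only member with a positive change in KO-labelled cells. It read 11.92 and 11.90 alone and 11.96 and 12.06 with lysate (0.10, adjusted p = 0.372), and 11.99 and 12.02, then 12.07 and 12.24, in wild type (0.14, adjusted p = 0.172). Neither change passed the test. Rpl3, Rpl4 and Rpl32 were the only members whose wild-type lysate libraries both lay above both wild-type libraries without lysate.

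**Figure D2:**
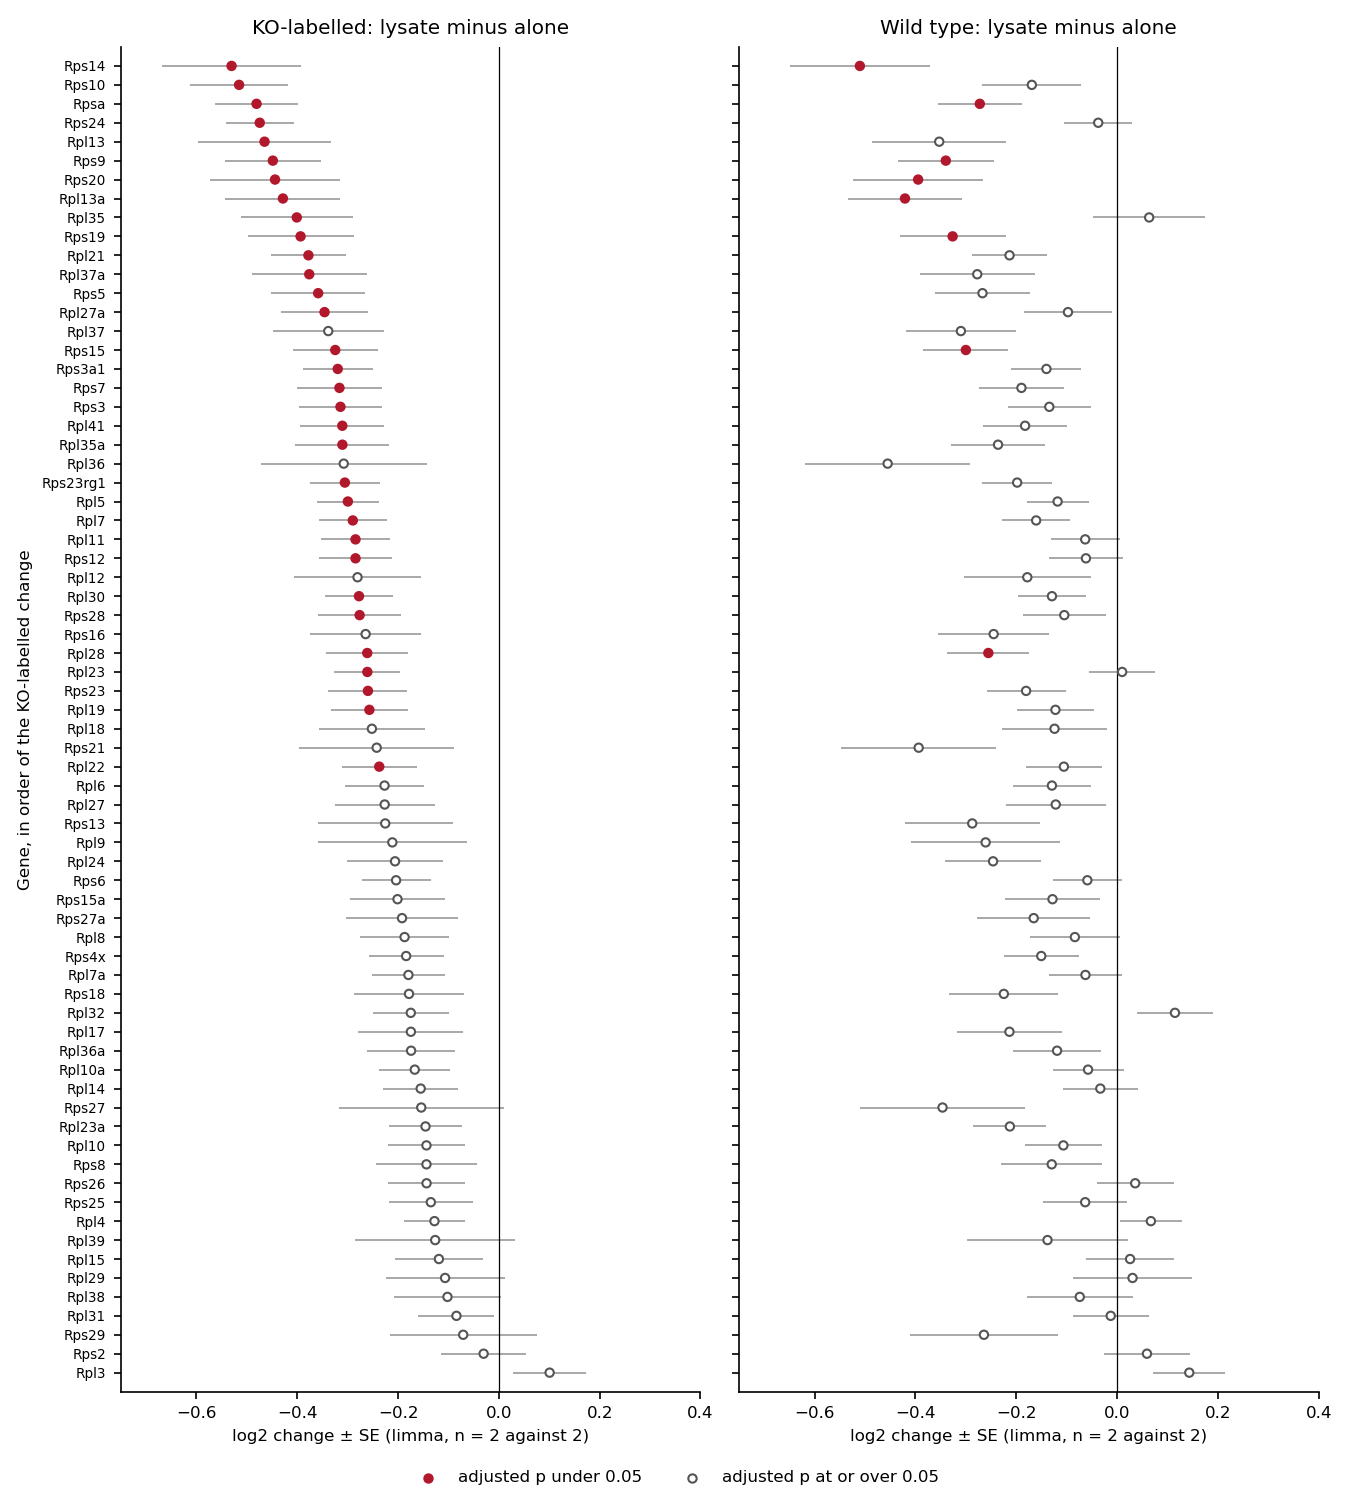
Log2 change with lysate (± SE, limma, 2 libraries against 2) for the ribosomal protein genes shown in KO-labelled cells (left, which sets the order) and wild-type cells (right); filled red points have an adjusted p under 0.05. Every red point on either side lies below 0.

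In wild-type cells, 9 of the 73 members fell with lysate and none rose, by limma. This 12.3% was close to the 11.3% of all genes called lower, and 10.2% of all genes were called higher. None was higher at an unadjusted p under 0.05 (against 16.6% of all genes), and 26 were lower (against 18.8% of all genes). The median change was -0.14 (range -0.51 to 0.14) against -0.010 over all genes, with 64 of 73 negative. The 9 were 7 small-subunit genes (Rps9, Rps14, Rps15, Rps19, Rps20 and Rpsa among them) and 2 large-subunit genes (Rpl13a and Rpl28). All 9 were also called in KO-labelled cells, where they made up 26.5% of the calls. In 38 members the libraries did not overlap and lysate was lower, against 32.3% of all genes, and in 3 lysate was higher, against 28.5%.

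The wild-type count depended on single libraries. It was 0 without wild-type replicate 2 alone or without wild-type lysate replicate 1, and 36 without wild-type lysate replicate 2. It was 24 without either KO-labelled library alone and 4 without either KO-labelled lysate library, which enter through the shared estimate of the spread. With the trend of every library on GC content and length taken out, 26 were lower and 2 higher.

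Rpl13a, a large-subunit protein that macrophages can release from the ribosome to silence inflammatory messages, read 12.83 and 12.97 in wild type alone and 12.28 and 12.67 with lysate (-0.42, adjusted p = 0.0192). In KO-labelled cells it read 13.10 and 12.85, then 12.48 and 12.61 (-0.43, adjusted p = 0.0228). Its groups did not overlap in either genotype. Rpl28 read 12.15 and 12.32, then 11.91 and 12.05, in wild type (-0.26, adjusted p = 0.0392). Its KO-labelled values were 12.34 and 12.18, then 11.97 and 12.03 (-0.26, adjusted p = 0.0454). The lysate changes of the 2 genotypes differed by -0.01 in both genes (adjusted p = 0.996 for Rpl13a and 0.995 for Rpl28).

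Of the small-subunit genes, Rps19, the member most often mutated in Diamond-Blackfan anaemia, read 13.05 and 13.11 in wild type alone and 12.54 and 12.97 with lysate (-0.33, adjusted p = 0.0416). Its KO-labelled values were 13.18 and 13.17, then 12.73 and 12.83 (-0.39, adjusted p = 0.0232). Rps15, which serves in export of the small subunit from the nucleus, read 12.91 and 13.05, then 12.59 and 12.77, in wild type (-0.30, adjusted p = 0.0227). It read 13.01 and 12.96, then 12.56 and 12.76, in KO-labelled cells. Rps20 read 12.20 and 12.27, then 11.58 and 12.10, in wild type (-0.39, adjusted p = 0.0437) and 12.25 and 12.04, then 11.62 and 11.78, in KO-labelled cells. In each of these 3 genes wild-type lysate replicate 1 was the lower of the pair, and the wild-type groups did not overlap. In this setting fewer cells of a type and less RNA per cell cannot be told apart.

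**Figure D3:**
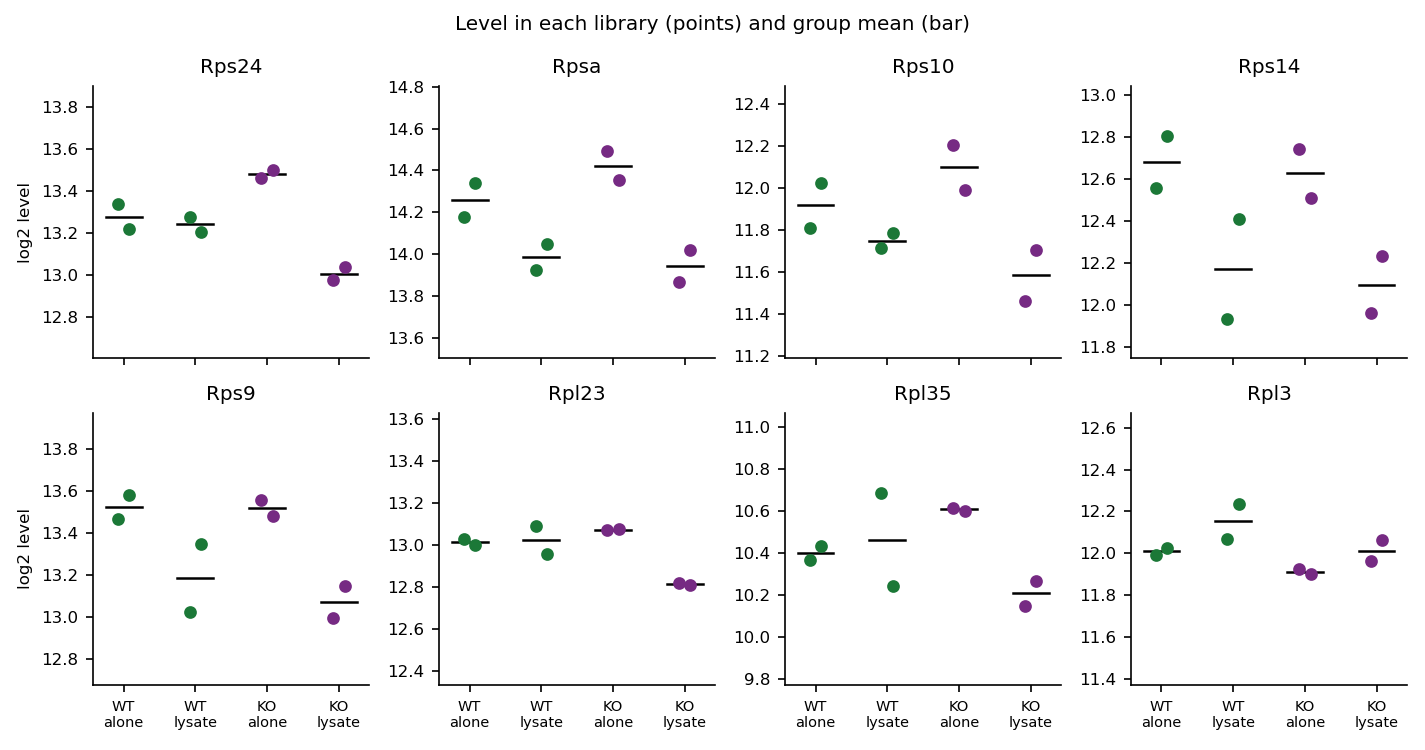
Log2 level of 8 ribosomal protein genes in each library (points) with the group mean (bar), wild type in green and KO-labelled in purple; every panel spans the same range of log2 units. Rps24, Rpl23 and Rpl35 are lower with lysate in the KO-labelled libraries, while their wild-type libraries with and without lysate overlap.

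The difference of the lysate changes between genotypes was tested as an interaction. No member passed by limma, against 0.11% of all genes (13 genes), and at an unadjusted p under 0.05 there were 8 members with a lower change in KO-labelled cells (against 2.9% of all genes) and 0 with a higher one (against 5.41% of all genes). The difference, KO-labelled minus wild type, was -0.097 at the median and negative in 62 of 73 members. Over all genes tested the median was 0.00089. Lists described below also had negative medians. These were -0.13 for ribosome biogenesis factors (43 of 52 negative) and -0.13 for the list of TOP messages (17 of 19). Mitochondrial ribosomal protein genes had -0.076 (65 of 76), and other genes under 800 bases -0.028 (213 of 367). The half-width of the 95% interval of the difference was 0.26 at the median member, so differences below that size were not resolved. Across the 73 members the changes in the 2 genotypes had a Spearman rho of 0.54, given as a description.

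Rps24 had the smallest p for the difference, at -0.44 ± 0.095 (interval -0.64 to -0.23, adjusted p = 0.191), and passed only with the GC and length trend removed (adjusted p = 0.0348) and with a crossed replicate block added after the data were seen (adjusted p = 0.0229). Rpl35, which lies beside the tunnel where the new protein leaves, read 10.61 and 10.60 in KO-labelled cells alone and 10.15 and 10.27 with lysate (-0.40, adjusted p = 0.0268). Its wild-type libraries with lysate, at 10.69 and 10.24, lay on either side of those alone, at 10.36 and 10.43. The difference was -0.46 (adjusted p = 0.44). Rpl23, which can also bind Mdm2, read 13.07 and 13.08, then 12.82 and 12.81, in KO-labelled cells (-0.26, adjusted p = 0.0171) and 13.03 and 13.00, then 13.09 and 12.96, in wild type. Its difference was -0.27 (adjusted p = 0.445). Rpl32 read 11.64 and 11.67, then 11.38 and 11.58, in KO-labelled cells and 11.60 and 11.56, then 11.65 and 11.74, in wild type, a difference of -0.29 (adjusted p = 0.467).

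Averaged over the genotypes, 40 members were lower with lysate (54.8%, against 18.2% of all genes) and none was higher, by limma. At an unadjusted p under 0.05, 56 were lower (against 23.4% of all genes) and 1 was higher (against 21.2% of all genes). The median average change was -0.20. Dropping KO-labelled lysate replicate 1 left 23.

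Without lysate, no member differed between KO-labelled and wild-type cells by limma, while 16.2% of all genes did (7.02% higher and 9.23% lower in KO-labelled cells). At an unadjusted p under 0.05 there were 2 higher, Rps24 and Rpl21 (against 13.6% of all genes), and 0 lower (against 15.0% of all genes). The median difference was 0.011, and 40 were positive. The libraries did not overlap in 14 members that were higher and 17 that were lower, against 26.4% of all genes in each direction. Rps24 stood 0.20 higher (adjusted p = 0.0576) and Rpl21 0.20 higher (adjusted p = 0.0927), each with no overlap between the groups. Rpl23a read 12.31 and 12.33 in wild type and 12.23 and 12.10 in KO-labelled cells (-0.15, adjusted p = 0.187). Rpl38, a protein known for a role in translating Hox messages, read 11.45 and 11.45 against 11.27 and 11.21 (-0.21, adjusted p = 0.216). Rps21 read 11.13 and 11.29 against 11.04 and 10.75 (-0.31, adjusted p = 0.199). These last 3 genes also did not overlap but did not pass. With lysate, Rpl23a read 12.03 and 12.18 in wild type and 12.01 and 12.03 in KO-labelled cells. Rpl38 read 11.16 and 11.59, and 11.11 and 11.16. Rps21 read 10.50 and 11.12, and 10.56 and 10.74.

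With lysate, 2 members were lower in KO-labelled than in wild-type cells and none was higher, by limma. At an unadjusted p under 0.05, 13 were lower (against 14.1% of all genes) and 0 higher (against 15.2% of all genes). The 2 of 73 compare with 5.45% of all genes lower and 7.44% higher. The median difference was -0.093, with 64 of 73 negative, and 23 members had no overlap in that direction against 31.0% of all genes, and 0 in the other against 29.6%. Over all genes tested the median was -0.0085. Other genes under 800 bases had a median of -0.097 (271 of 367 negative) and mitochondrial ribosomal protein genes -0.11 (65 of 76). The list of TOP messages had -0.11 (16 of 19) and ribosome biogenesis factors -0.059 (35 of 52). The 2 members called lower were Rps24 (-0.23 ± 0.067, adjusted p = 0.037) and Rpl23 (-0.21, adjusted p = 0.0488). Neither call held when either KO-labelled lysate library was dropped (adjusted p of 0.295 and 0.112 for Rps24, 0.258 and 0.194 for Rpl23) or when wild-type lysate replicate 1 was dropped (adjusted p of 0.161 and 0.239). Rps24 did not pass when wild-type lysate replicate 2 was dropped (adjusted p = 0.0703), nor Rpl23 without either wild-type library alone (adjusted p of 0.0562 and 0.0559).

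Other members low in p with lysate did not pass. Rps28 read 12.06 and 12.31 in wild type and 11.87 and 12.01 in KO-labelled cells (-0.24, adjusted p = 0.0676), after 12.27 and 12.31 and 12.19 and 12.24 without lysate. Rps2 read 9.10 and 9.15 against 8.83 and 9.0 (-0.21, adjusted p = 0.119), after 9.02 and 9.10 and 9.01 and 8.88. These genes had no overlap between the genotypes with lysate. Neutrophil markers differed between the genotypes as well. Of 10 listed, 9 were in the table, 8 were called lower in KO-labelled cells alone and 9 with lysate, with a mean level from 8.89 to 9.16 over the wild-type libraries and from 7.79 to 8.0 over the KO-labelled ones. Of 8 macrophage markers, all 8 in the table, 5 were lower in KO-labelled cells alone and 3 with lysate, and none was higher. Their mean level in wild type was 12.74 and 12.77 alone and 12.80 and 12.76 with lysate, and in KO-labelled cells 12.47 and 12.42, then 12.56 and 12.58. Of the 11 dendritic cell markers, 2 were higher and 1 lower in KO-labelled cells alone, and 5 were higher and 0 lower with lysate. Of 6 proliferation markers in the table, 2 were lower in KO-labelled cells in each condition and none was higher. Over all genes tested, 7.02% were higher and 9.23% lower in KO-labelled cells alone, and 7.44% and 5.45% with lysate. The part of any of these lists in the members' differences was not tested.

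The replicates of wild-type cells with lysate differed more in these genes than those of any other group. Replicate 2 was higher in 65 of 73 members, by 0.22 at the median (range -0.45 in Rpl35 to 0.73 in Rpl39), and 27 members differed by more than 0.3 in size, against 3.84% of all genes. In KO-labelled cells with lysate replicate 2 was higher in 72 members by 0.11 at the median, and 0 differed by more than 0.3. Without lysate the medians were 0.061 in wild type and -0.10 in KO-labelled cells. Rps29 and Rps15a show the size of the wild-type gap.
Rps29 read 12.49 and 13.15 in wild type with lysate against 13.04 and 13.14 alone, and 12.94 and 12.82, then 12.76 and 12.85, in KO-labelled cells. Rps15a read 11.08 and 11.40 in wild type with lysate against 11.42 and 11.32 alone, and 11.44 and 11.35, then 11.14 and 11.26, in KO-labelled cells. In both genes wild-type lysate replicate 1 was the lowest of the 8 libraries.

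By pairs of libraries, the members' median change in wild type was -0.24 and -0.30 for lysate replicate 1 against the 2 libraries alone, and -0.016 and -0.068 for lysate replicate 2. In KO-labelled cells the 4 pairs gave -0.35, -0.25, -0.22 and -0.15. The replicate gap moved with transcript length over all genes in wild type with lysate (Spearman rho -0.37, and -0.32 within the members), with shorter transcripts higher in replicate 2. The 367 other genes under 800 bases differed by 0.14 at the median in that group. In the remaining groups the rho with length over all genes was -0.18, 0.20 and -0.21, and with GC content it was 0.72 in wild type alone and -0.64 in KO-labelled cells alone. The part of these gradients in the members' changes was not tested beyond the fit with both trends removed. In that fit 26 members were lower and 2 higher in wild type. The members' lysate changes themselves had a rho with length of 0.21 in wild type and -0.070 in KO-labelled cells, and the other genes under 800 bases had median changes of -0.055 and -0.061.

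**Figure D4:**
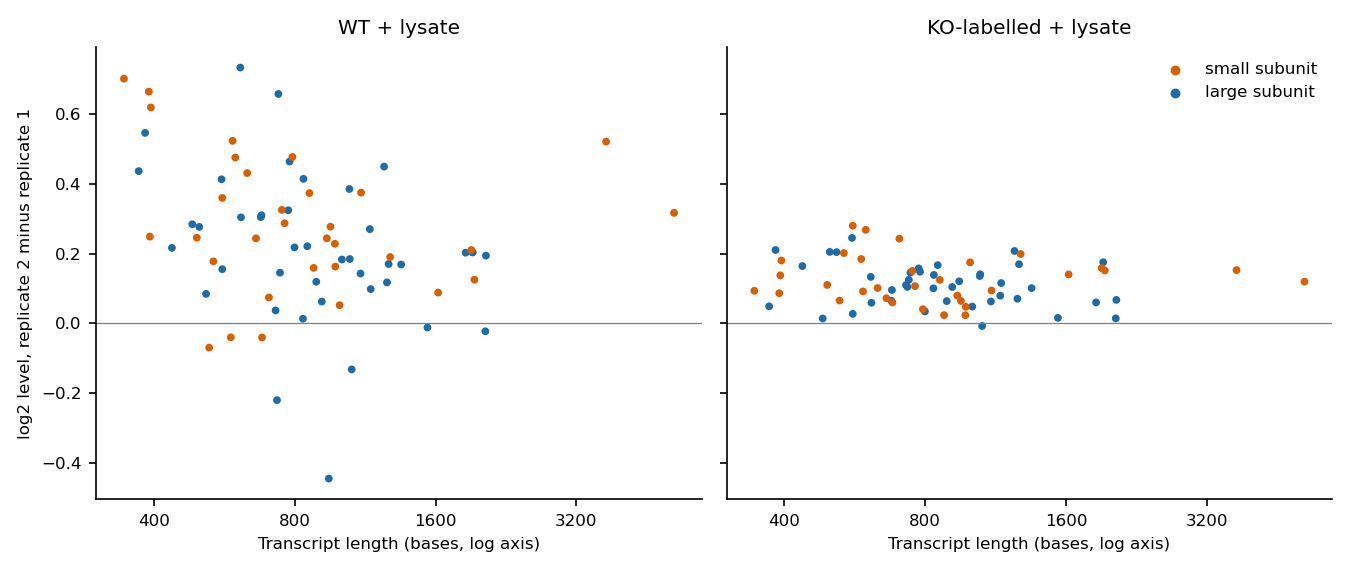
Log2 level in replicate 2 minus replicate 1 for each ribosomal protein gene against its transcript length (log axis), for wild-type (left) and KO-labelled (right) cells with lysate. Wild-type differences reach 0.73, while KO-labelled differences lie between -0.0078 and 0.28.

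Changes were also set against the letters near the start, with no test. In KO-labelled cells the median change was -0.25 in the 30 members with CTTTC near the start (14 called lower) and -0.26 in the 24 without (12 called lower). In wild type the medians were -0.13 and -0.14, with 4 and 2 called lower. Rps10, Rpl5 and Rpl28, counted with CTTTC, and Rps24, counted without it, were all called in KO-labelled cells. Rpsa, also called there, was counted with CTTTC, although the shorter window printed above does not reach those letters. For CCGGAAG the KO-labelled medians were -0.24 in 21 members with it and -0.26 in 33 without.

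The ribosomal proteins that the name rule leaves out also had negative changes. Of these, 6 were in the table, among them the stalk proteins Rplp0, Rplp1 and Rplp2, Fau, made as a fusion with a ubiquitin-like protein, and Rack1, a signalling scaffold on the small subunit. Fau read 13.20 and 13.42 in wild type alone and 12.81 and 12.99 with lysate (-0.41, adjusted p = 0.00559), and 13.45 and 13.32, then 12.83 and 12.95, in KO-labelled cells (-0.49, adjusted p = 0.00247). Rplp2 (-0.56, adjusted p = 0.0253) and Rplp1 (-0.34, adjusted p = 0.0411) also fell in KO-labelled cells. Fau was the only call of the 6 in wild type, the 6 medians were -0.17 and -0.30 in wild type and KO-labelled cells, and all 6 changes were negative in each genotype. None of 5 like-genes of ribosomal proteins passed in either genotype.

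A list of translation factors and other genes with TOP messages did not move as a block. Of 19 in the table, 3 rose and 3 fell in wild type (median -0.0098), against 10.2% and 11.3% of all genes. In KO-labelled cells 1 rose and 3 fell (median -0.084), against 8.28% and 6.92% of all genes. The genes named below as rising, Vim and Nap1l1, are not translation factors, and another gene of the list that rose in wild type is not named here. Eef1b2, a nucleotide exchange factor of elongation, fell in KO-labelled cells (-0.42, adjusted p = 0.00329), as did Eef1d (-0.31, adjusted p = 0.0265) and the initiation factor subunit Eif3h (-0.23, adjusted p = 0.0323). Vim, an intermediate filament protein, rose in both genotypes (0.40 in wild type, adjusted p = 0.000794, and 0.26 in KO-labelled cells, adjusted p = 0.014). Nap1l1, a histone chaperone, rose in wild type (0.39, adjusted p = 0.0054).

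Ribosome biogenesis factors process ribosomal RNA and assemble subunits. Of 52 in the table, 12 rose and 1 fell in wild type (median 0.12), where 10.2% of all genes were higher and 11.3% lower. In KO-labelled cells 2 rose and 2 fell (median 0.032), against 8.28% and 6.92% of all genes. Their difference from the ribosomal proteins was not tested. Nop58, a core protein of the particles that methylate ribosomal RNA, read 8.23 and 8.14 in wild type alone and 8.73 and 8.80 with lysate (0.58, adjusted p = 0.000343). Ltv1 (0.38, adjusted p = 0.0114) and Bysl (0.37, adjusted p = 0.0102), both factors of small-subunit assembly, also rose there, and Rrp1b fell (-0.34, adjusted p = 0.00829). In KO-labelled cells Dkc1, the pseudouridine synthase of ribosomal RNA (0.30, adjusted p = 0.0402), and Polr1a, the large subunit of RNA polymerase I (0.27, adjusted p = 0.0298), rose, and the polymerase I factor Ubtf fell (-0.27, adjusted p = 0.0177). None of the 52 passed the interaction test, so a difference between the genotypes was not shown.

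Among 22 regulators of ribosomal protein synthesis, 2 were higher and 5 lower with lysate in wild type, against 10.2% and 11.3% of all genes. In KO-labelled cells 2 were higher and 3 lower, against 8.28% and 6.92% of all genes. Myc, a transcription factor that drives ribosome production, rose in both (0.43, adjusted p = 0.00567, and 0.44, adjusted p = 0.00652), as did Mdm2 (0.30, adjusted p = 0.00612, and 0.32, adjusted p = 0.00582). Sesn2, a leucine sensor that holds back mTOR, fell in both (-0.38, adjusted p = 0.00249, and -0.28, adjusted p = 0.0179), the mTOR partner Deptor fell in wild type (-0.58, adjusted p = 0.000666), and Maf1, a repressor of RNA polymerase III, fell in KO-labelled cells (-0.38, adjusted p = 0.00927). Between the genotypes, 5 of the 22 were higher and 1 lower in KO-labelled cells without lysate, against 7.02% and 9.23% of all genes. With lysate 3 were higher and 0 lower, against 7.44% and 5.45% of all genes. The lower one without lysate was Deptor (-0.53, adjusted p = 0.00117). Sesn2 (0.40 alone, adjusted p = 0.00198, and 0.50 with lysate, adjusted p = 0.000938), Tsc1 (0.31, adjusted p = 0.00616, and 0.44, adjusted p = 0.00116) and Mtor (0.26, adjusted p = 0.0221, and 0.35, adjusted p = 0.0071) were higher in KO-labelled cells in both conditions.

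Mitochondrial ribosomal protein genes, whose products build the separate ribosome of mitochondria, were also listed. Of 76 in the table, 2 rose and 1 fell in wild type (median 0.0092), against 10.2% and 11.3% of all genes. In KO-labelled cells 0 rose and 5 fell (median -0.074), against 8.28% and 6.92% of all genes. Mrpl24 (-0.39, adjusted p = 0.00686) and Mrpl54 (-0.43, adjusted p = 0.00866) had the smallest p there.

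Markers of other cells moved in the lysate comparisons as well. The mean level of the 6 melanocyte genes in the table went from 7.46 and 7.44 to 8.18 and 8.20 in wild type and from 7.43 and 7.44 to 8.30 and 8.26 in KO-labelled cells. Dct, a pigment enzyme, went from 4.75 and 4.75 to 5.80 and 5.95 and from 4.87 and 4.84 to 6.20 and 6.13. Tyrp1, Pmel and Slc45a2 were likewise low without lysate, at 4.75 and 4.75, 5.50 and 5.48, and 3.63 and 3.63 in wild type. Such low values can stand for few or no reads. Without counts the size of the rise in these genes and in Dct is uncertain. Gpnmb, a glycoprotein that macrophages also make, rose by 0.68 in wild type and 0.59 in KO-labelled cells, and Mitf, a transcription factor of several cell types, by 0.38 and 0.45, from levels that the cells had without lysate. Of the macrophage markers, 2 rose (Cd68 by 0.77 and Fcgr1 by 0.58) and 3 fell in wild type (Cd14 by 0.54, Csf1r by 0.30 and Lyz2 by 0.25). In KO-labelled cells the same 2 rose (0.61 and 0.60) and none fell. Over all genes tested, 10.2% were called higher with lysate in wild type and 8.28% in KO-labelled cells. Dendritic cell markers fell in 7 of 11 cases in wild type and 6 of 11 in KO-labelled cells, against 11.3% and 6.92% of all genes. In each genotype both lysate libraries lay below both libraries alone for H2-Aa, H2-Ab1 and H2-Eb1 (MHC class II genes), Cd74, Ciita and Zbtb46. Group means of Flt3 were 10.36 alone and 10.50 with lysate in wild type, and 10.77 and 10.79 in KO-labelled cells. For Itgax they were 11.39 and 11.44, and 11.06 and 11.28. The part of these shifts in the members' changes was not tested.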

How the data were processed

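Each of 8 poly(A) RNA-seq libraries (4 groups of 2, grouped by sample title) had a column of log2 values per Entrez gene in the deposited table. The authors' values were read as DESeq2's regularized logarithm of read counts, scaled between libraries, an inference from the table's name and the submitters' processing notes, which name DESeq2, STAR, deepTools and mm9 without versions. For the counter, annotation, strand setting and gene filter: not given in the sources used here. Counts were not used here, so library depth is unknown and values carry no counting interval.

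Symbols were matched for 11744 of 11786 identifiers (42 had none), and lengths and GC content came from GRCm38 transcripts (median over RefSeq-matched models). Genes with a largest group mean of at least 4 were tested, which removed 1 and left 11785. Group means of all 8 libraries were fitted in limma 3.58.1 (R 4.3.3; trended eBayes, two-sided, Benjamini-Hochberg over all genes, threshold 0.05; 4 residual and 9.33 prior degrees of freedom), in scripts tested on simulated data. Contrasts were lysate in each genotype, genotype in each condition, their interaction and the average lysate effect. Tables and figures used Python 3.11.15.

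The members and lists were chosen with earlier results of these data known. Values in every library are given for the 8 members with the smallest p in each simple contrast, the 4 smallest for the interaction, and the 3 highest and lowest per kilobase. Some items are not reported here. A few others (Rps23, Rpl3, Dct, Fau, Nop58 and the dendritic cell markers named) were added after their values were seen, and up to 4 genes of each list are named by p. Alternatives were a replicate block, other filters and scalings, no variance trend, only the groups compared, GC and length trends removed, a wider member set and leaving out each library.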

Additional observations from a re-analysis of the deposited data

How the results depend on the processing

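Every alternative kept the sign of the members' median lysate change in each genotype and of the average. Members lower with lysate in wild type (9) became 5 with no mean-variance trend, 16 with only the groups compared, and 26 (2 higher) with the GC and length trend removed. In KO-labelled cells that last fit added 1 member higher. Without lysate, members higher in KO-labelled cells (0) became 1 with quantile normalization and 8 with the GC and length trend removed. With lysate, members lower in KO-labelled cells (2) became 0 with quantile normalization, 0 with no mean-variance trend, 6 with only the groups compared, and 1 lower and 1 higher with the GC and length trend removed. That fit also called 1 member lower in the interaction and 1 higher on average. The causes of these shifts were not tested.

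Leaving out each library in turn gave 0 to 36 lower and 0 to 1 higher in wild type (median -0.28 to -0.051), and 1 to 43 lower in KO-labelled cells (median -0.31 to -0.18). For genotype without lysate it gave 0 to 2 lower (median -0.047 to 0.056, turned negative at -0.032 without wild-type replicate 1 alone and at -0.047 without KO-labelled replicate 1 alone). For genotype with lysate it gave 0 to 10 lower and 0 to 1 higher (median -0.20 to 0.014), and for the interaction a median of -0.21 to 0.040, both turned positive without wild-type lysate replicate 2. On average it gave 23 to 58 lower, 0 to 1 higher and a median of -0.27 to -0.15.

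The r of replicate differences ran from -0.61 (wild type alone against KO-labelled alone) to 0.26 over the 6 pairs of groups. Whether libraries of different groups shared a batch, under the same or swapped numbers, was not tested. A replicate block gave 30 lower in KO-labelled cells and 0 lower for genotype with lysate, against 2. A crossed replicate block, chosen after seeing the data, gave 31 lower in wild type, 47 in KO-labelled cells, 4 higher and 2 lower for genotype alone, 9 lower with lysate, 1 lower in the interaction and 1 higher on average.

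For the 36 single-gene results computed under these alternatives no direction turned, and other members were not run singly. Leaving out a library lost 43 and gained 9 of 288 results, and the other alternatives, the crossed block aside, lost 14 and gained 9 of 284. With 2 libraries a group and unknown depth, small changes were not resolved.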
